A study of Mus musculus with 12 samples.

Results

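The complement set holds 31 mouse genes of the complement system. Its members are the genes of the deposited expression table whose symbol is on a list of 31 symbols, and each symbol was found. They make up 32 of the 47069 genes listed, since the table gives the symbol C1s2 to 2 Ensembl identifiers. Values are FPKM, read fragments scaled to the length of the transcript and to the size of the library, so that levels of different genes can be compared per length. Of the 32 genes, 29 had a mean of at least 0.1 FPKM over the 12 libraries and were tested for differences, among 17386 tested genes in all. The others were Cfd, which was listed at no more than 0.17 FPKM in any library, C7, at no more than 0.28 FPKM, and the second gene named C1s2, at no more than 0.04 FPKM.

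Complement is a cascade of plasma proteins that coats microbes and damaged cells, draws in phagocytes and punches pores into membranes. It starts from the classical pathway (C1q, C1r and C1s), the lectin pathway (mannose-binding lectins with MASP proteases) or the alternative pathway, and the routes meet at the cleavage of C3. Hepatocytes make most of the circulating components, whereas C1q and properdin come largely from macrophages and other myeloid cells, and several components belong to the acute-phase proteins of the liver.

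The study compared mice lacking the cell cycle kinase Cdk1 in hepatocytes with wild-type (WT) mice at P14, postnatal day 14. Polyadenylated RNA from isolated hepatocytes and from whole liver was sequenced as single reads of 75 bp. There were 3 libraries in each of 4 groups, the isolated hepatocytes of WT and of Cdk1 Liv-/- mice and the whole livers of both genotypes. Cdk1 Liv-/- mice came from a cross of Cdk1 flox/flox to Albumin-Cre mice, so deletion is driven by the albumin promoter. The paper reports that deletion was partial in hepatoblasts of the embryo and complete in hepatocytes at P14. It found Cdk1 staining left in interstitial cells of the liver. According to the study's methods only males were used. All mice were kept in specific pathogen-free housing on a standard diet. The sources give no strain and do not say whether the WT mice carried the floxed allele or Cre.

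The deposited table holds no read counts. FPKM near 0 rise in steps of single reads, and the steps of short transcripts gave the depth, estimated on 1160 to 1508 genes per library. An FPKM of 1 on 1 kb of transcript stood for 34.7 to 49.8 reads, and at that scale 56.3% to 63.3% of those genes came within 0.1 of a whole read count. The deleted gene itself was listed at 27.9, 20.4 and 28.2 FPKM in WT hepatocytes and 9.68, 11.8 and 6.87 FPKM in Cdk1 Liv-/- hepatocytes. Its whole liver levels were 25.3, 22.7 and 21.5 FPKM in WT whole liver and 11.7, 12.1 and 14.2 FPKM in Cdk1 Liv-/- whole liver. All 6 Cdk1 Liv-/- libraries were below all 6 WT libraries. By qPCR, the paper found barely any Cdk1 mRNA in isolated Cdk1 Liv-/- hepatocytes of this age. Its staining for the exon that Cre removes was left only in interstitial cells. The FPKM are for the whole gene, and the part of the remaining exons or of other cells in them was not tested. The log2 fold change of Cdk1 was -1.40 ± 0.22 (adjusted p = 0.0148) in hepatocytes and -0.85 ± 0.10 (adjusted p = 0.00353) in whole liver. Here and below, ± gives the standard error, each group has n = 3 libraries, and adjusted p is that of limma over the 17386 genes.

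Hepatocyte and whole liver libraries were compared on 10 hepatocyte marker genes, among them Alb and Ttr. None of the 10 was at 0 in every library. Their summed level was 86733, 95537 and 90406 FPKM in WT hepatocytes and 61617, 62154 and 59197 FPKM in Cdk1 Liv-/- hepatocytes. In whole liver it was 89796, 88235 and 91147 FPKM in WT and 70112, 63436 and 68147 FPKM in Cdk1 Liv-/- libraries. Alb, the most abundant gene, gave 67.7% of the sum. The sums were lower in each Cdk1 Liv-/- library than in each WT library. In WT the mean sums were close, at 90892 FPKM in hepatocytes and 89726 FPKM in whole liver. By limma 0 of the 10 markers passed between these WT groups, so they do not measure how pure the isolated cells were. By gene, 2 of the 10 markers were higher and 2 lower in Cdk1 Liv-/- hepatocytes (12.1% and 6.61% of all tested genes). In Cdk1 Liv-/- whole liver 5 of the 10 were lower (7.53%).

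Among the libraries, 2 stood apart. Cdk1 Liv-/- whole liver replicate 3 had Xist, the RNA of the inactive X chromosome, at 158 FPKM, where the other libraries had 0 to 0.14 FPKM. Its 4 Y-linked genes summed to 0, against 48.3 to 62.1 FPKM in the others, which is at odds with the males stated in the methods. WT hepatocytes replicate 3 held more RNA of markers of other liver cells than the other WT hepatocyte libraries. Its 10 markers of Kupffer cells and macrophages summed to 485 FPKM, where replicates 1 and 2 had 267 and 144 FPKM. The WT whole liver libraries had 347 to 409 FPKM of these markers. WT hepatocytes replicate 3 had 257 FPKM of sinusoidal endothelial markers, also above WT whole liver, at 120 to 173 FPKM. Its marker sums of stellate cells and fibroblasts, monocytes, cholangiocytes, erythroid cells and lymphocytes were instead below those of each WT whole liver library. Its neutrophil and mesothelial sums lay within the WT whole liver range. Genotype and interaction calls of members that were lost without either of the 2 libraries that stood apart are given with and without it.

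In hepatocytes, 10 of the 29 tested members (34.5%) were higher in Cdk1 Liv-/- than in WT, where 12.1% of all tested genes were. One member in the other direction, Cd55 (3.45%), was lower, where 6.61% of all tested genes were. Among the members higher, C1rb and C1s2 cleared the filter on low values through the Cdk1 Liv-/- groups alone. A gene was called higher or lower when its adjusted p was at most 0.1. The median log2 fold change of the 29 members was 0.05, and that of all tested genes was also 0.05. When a change of 1 or more on the log2 scale, up or down, was required as well, 6 members were higher (4.2% of all tested genes) and 1 was lower (2.17%). C1rb and C1s2 were among the 6. With each library left out in turn, 8 to 10 members were higher (6.65% to 9.33% of all tested genes) and 1 to 6 lower (2.31% to 7.04%). The 6 came without WT replicate 2, where C1qa, C1qb, C1qc, C3ar1 and Cfp joined Cd55 and 7.04% of all tested genes were lower.

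In whole liver, 16 of the 29 members (55.2%) were higher and 5 (17.2%) were lower in Cdk1 Liv-/- mice. Of all tested genes, 38% were higher and 7.53% lower there, so a rise in that tissue was common. The median log2 fold change was 0.25 over the members and 0.18 over all tested genes. With a change of 1 or more required as well, 3 members were higher, C1rb and C1s2 among them (4.59% of all tested genes), and 1 was lower (1%). With each library left out in turn, 11 to 15 members were higher (25.9% to 35.6% of all tested genes) and 1 to 5 lower (4.94% to 7.45%). The 1 was Masp2 without WT replicate 2, where 5.04% of all tested genes were lower. When libraries were scaled by median-ratio size factors, the median of all genes moved from 0.18 to 0.01. Then 10 members were higher and 8 lower in whole liver, where 17.9% of all tested genes were higher and 16.4% lower: C1qb, C1s1, C4a, C6, Cfb and Cfi lost their call, and C1ra, C2 and Masp1 were called lower. In hepatocytes that scaling gave 8 members higher, without C3 and Cfi, and 4 lower, with C1qa, C1qc and Cfp added, where 9.83% of all tested genes were higher and 8.13% lower.

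Across both tissues, 9 members were higher in Cdk1 Liv-/- hepatocytes and in Cdk1 Liv-/- whole liver: C1rb, C1s2, C3, C4a, C4b, C4bp, C9, Cfi and Serping1. These are 31% of the 29 members, where 9.27% of all tested genes were higher in both. Among the 9, C1rb and C1s2 cleared the filter on low values through the Cdk1 Liv-/- groups alone. Cd55 (3.45%) was lower in both, where 2.51% of all tested genes were. Mbl2 (3.45%) passed as higher in hepatocytes only, where 2.75% of all tested genes did. C1qb, C1s1, C3ar1, C5ar1, C6, C8a and Cfb (24.1%) passed as higher in whole liver only, where 28.2% of all tested genes did. Passing in 1 tissue alone does not show that the tissues differ, which is tested further on. C8b, C8g, Masp2 and Mbl1 (13.8%) passed as lower in whole liver only, where 4.92% of all tested genes did. C1qa, C1qc, C1ra, C2, Cfp, Hc and Masp1 (24.1%) passed in neither tissue, as did 48.1% of all tested genes. Without WT hepatocytes replicate 3, 8 members were higher and 1 lower in hepatocytes (8.61% and 4.39% of all tested genes), C3 and Cfi losing their call. Without Cdk1 Liv-/- whole liver replicate 3, 13 were higher and 3 lower in whole liver (31.5% and 5.71% of all tested genes), C4a, C6, Cfi, C8b and Cd55 losing theirs.

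**Figure D1:**
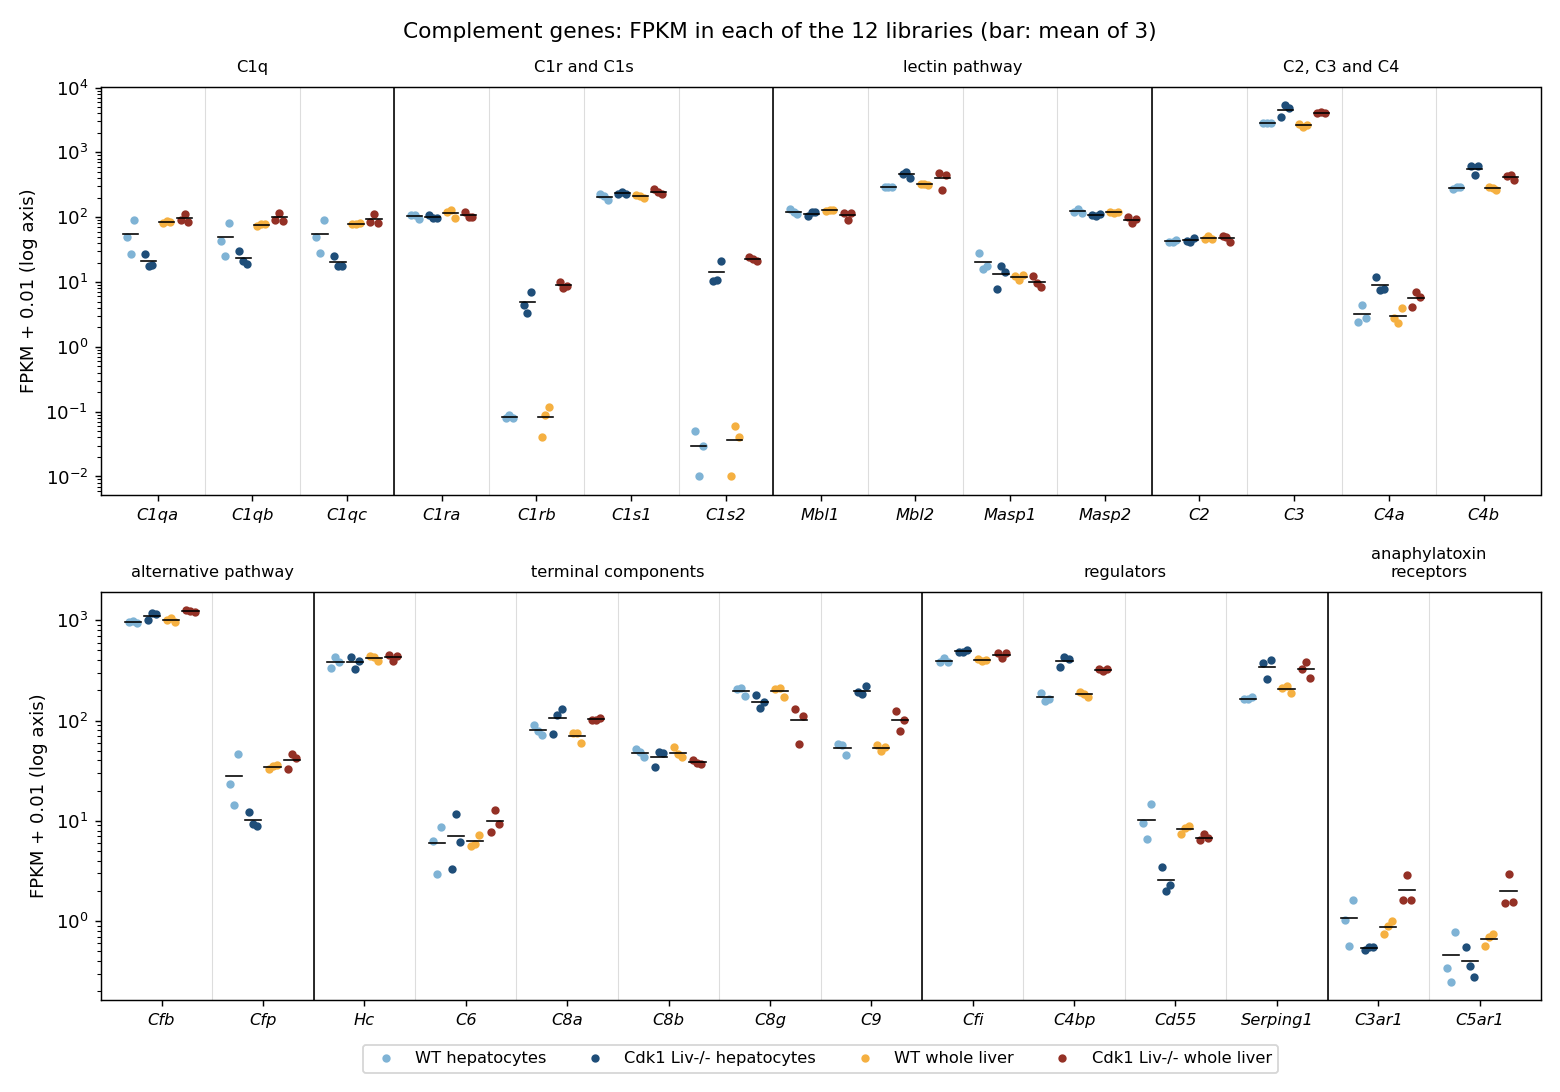
FPKM of the 29 tested complement genes in each of the 12 libraries, drawn as FPKM + 0.01 on a log axis, with 1 point per library in the color of its group and a bar at the mean of the 3. C3 sits highest, at 2484 to 5303 FPKM, and C1rb and C1s2 are the genes whose WT points all lie at or below 0.11 FPKM.

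**Figure D2:**
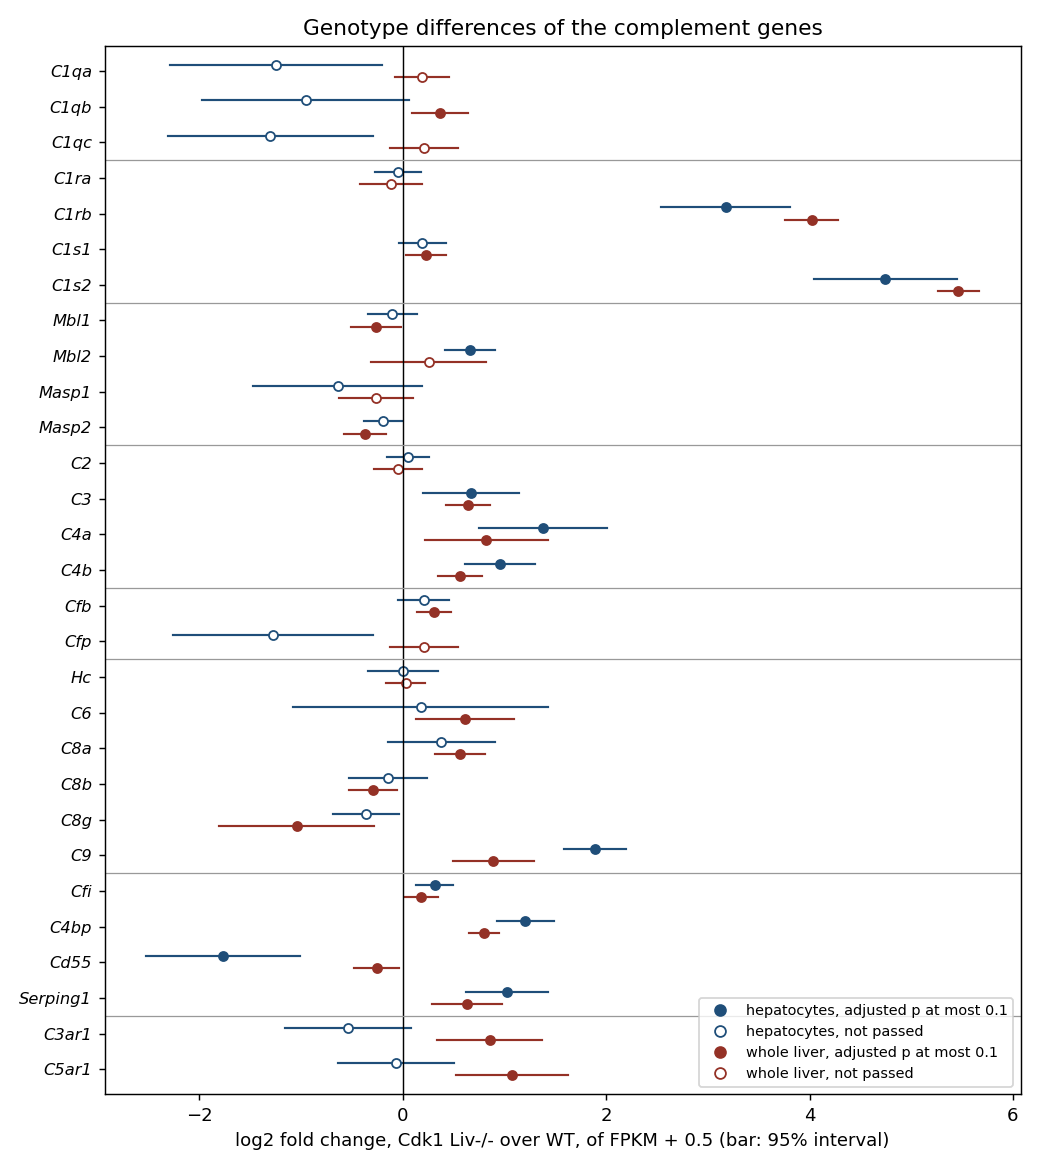
Log2 fold change of FPKM + 0.5, Cdk1 Liv-/- over WT, of the 29 tested members in hepatocytes (blue) and whole liver (red), with 95% confidence intervals and filled points for an adjusted p of at most 0.1. C1s2 and C1rb lie farthest right, and Cd55 in hepatocytes farthest left at -1.77.

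Taken as 1 sum, the 32 complement genes held 1.02, 0.976 and 0.965% of all FPKM in WT hepatocytes and 1.2, 1.56 and 1.52% in Cdk1 Liv-/- hepatocytes. The shares in whole liver were 0.993, 0.964 and 0.951% in WT and 1.36, 1.34 and 1.29% in Cdk1 Liv-/- libraries. Each Cdk1 Liv-/- share was above each WT share, and no test was run on the shares. C3 alone made up 37% to 52.4% of the complement sum. Outside C3, the remaining 31 genes summed to 3849.7, 3862 and 3861 FPKM in WT hepatocytes and 4921, 4826 and 5164 FPKM in Cdk1 Liv-/- hepatocytes, again without overlap.

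**Figure D3:**
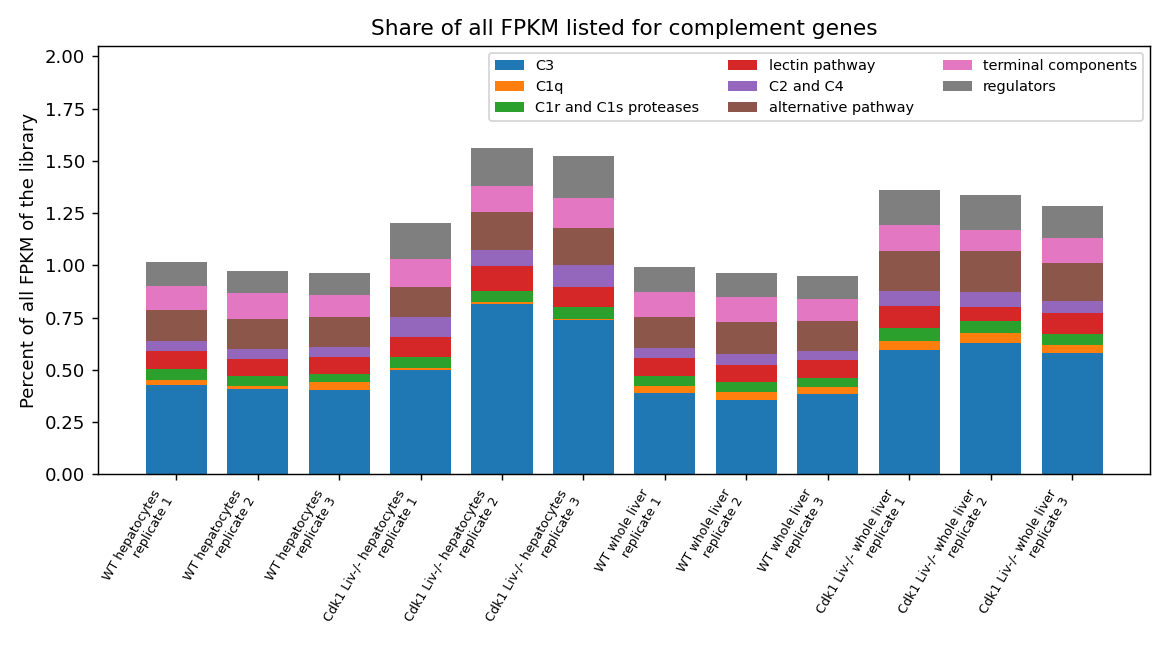
Share of all FPKM of each library held by complement genes, in percent, stacked by role with C3 apart from C2 and C4 (the anaphylatoxin receptors, with at most 5.81 FPKM, are not drawn). The 6 WT bars reach 0.951% to 1.02%, and the 6 Cdk1 Liv-/- bars reach 1.2% to 1.56%.

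The classical pathway begins with C1q, whose A, B and C chains are encoded by C1qa, C1qb and C1qc and bind antibodies on a target. C1qa was listed at 50.1, 27.2 and 90.3 FPKM in WT hepatocytes and 27.2, 17.7 and 18.3 FPKM in Cdk1 Liv-/- hepatocytes. C1qb was listed at 43, 25.3 and 81.4 FPKM in WT hepatocytes and 29.9, 20.8 and 19 FPKM in Cdk1 Liv-/- hepatocytes, and C1qc at 49.1, 27.7 and 90.3 FPKM in WT hepatocytes and 25.3, 17.7 and 17.5 FPKM in Cdk1 Liv-/- hepatocytes. For each of the 3 genes, WT replicate 3 was the highest hepatocyte library. The genotypes overlapped for C1qa, by less than 0.1 FPKM, and for C1qb, and those of C1qc were close, at 27.7 FPKM in the lowest WT and 25.3 FPKM in the highest Cdk1 Liv-/- library. The log2 fold changes in hepatocytes were -1.25 ± 0.43 (adjusted p = 0.122) for C1qa, -0.96 ± 0.42 (adjusted p = 0.197) for C1qb and -1.30 ± 0.42 (adjusted p = 0.102) for C1qc, none of which passed. Without WT replicate 2, the lowest WT library, the 3 passed at -1.68, -1.36 and -1.72, and without WT replicate 3 they were -0.82, -0.53 and -0.88 and did not pass. C1qa and C1qc also passed with a filter at 1 FPKM and with median-ratio size factors, and C1qc with libraries rescaled to 1 sum.

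In whole liver the 3 genes lay at other levels. C1qa was listed at 80.3, 87.9 and 83.2 FPKM in WT whole liver and 91.8, 111 and 84.7 FPKM in Cdk1 Liv-/- whole liver. The levels of C1qb were 72.9, 78.4 and 77.4 FPKM in WT whole liver and 91.4, 117 and 88.8 FPKM in Cdk1 Liv-/- whole liver. C1qc was listed at 78.2, 78.6 and 80.2 FPKM in WT whole liver and 83.8, 113 and 80.2 FPKM in Cdk1 Liv-/- whole liver. The C1qb groups did not overlap, those of C1qa and C1qc did, and Cdk1 Liv-/- replicate 2 was the highest for each gene. C1qb rose, by 0.36 ± 0.11 (adjusted p = 0.053) on the log2 scale, and lost its call without any 1 of the 3 WT libraries, the value lying within 0.24 to 0.44 over all 6 leave-outs. That call was also lost without a filter and with median-ratio size factors. C1qa (0.19 ± 0.11 (adjusted p = 0.227)) and C1qc (0.21 ± 0.13 (adjusted p = 0.272)) did not pass, and with median-ratio size factors they turned to -0.04 and -0.01. Over the 6 leave-outs C1qa lay within 0.07 to 0.27 and C1qc within 0.05 to 0.30.

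Markers of Kupffer cells, the resident macrophages of the liver, and of other macrophages were set beside C1q. The list has 10 genes, Cd5l the most abundant with 24.6% of the sum, and none was at 0 everywhere. Their sum was 267, 144 and 485 FPKM in WT hepatocytes and 176, 143 and 127 FPKM in Cdk1 Liv-/- hepatocytes. In whole liver it was 347, 390.1 and 409 FPKM in WT and 520.1, 766 and 564 FPKM in Cdk1 Liv-/- libraries. Of the 10 markers, 1 was lower in Cdk1 Liv-/- hepatocytes, as were 6.61% of all tested genes. In Cdk1 Liv-/- whole liver 5 were higher, as were 38% of all tested genes. The summed C1q level divided by this marker sum was 0.532, 0.556 and 0.54 in WT hepatocytes and 0.469, 0.392 and 0.432 in Cdk1 Liv-/- hepatocytes. The ratio was 0.667, 0.628 and 0.589 in WT whole liver and 0.513, 0.445 and 0.449 in Cdk1 Liv-/- whole liver, below WT in each tissue. In RNA of bulk samples, fewer cells of a type and less RNA per cell cannot be told apart, and the part of these cells in the C1q values was not tested.

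**Figure D4:**
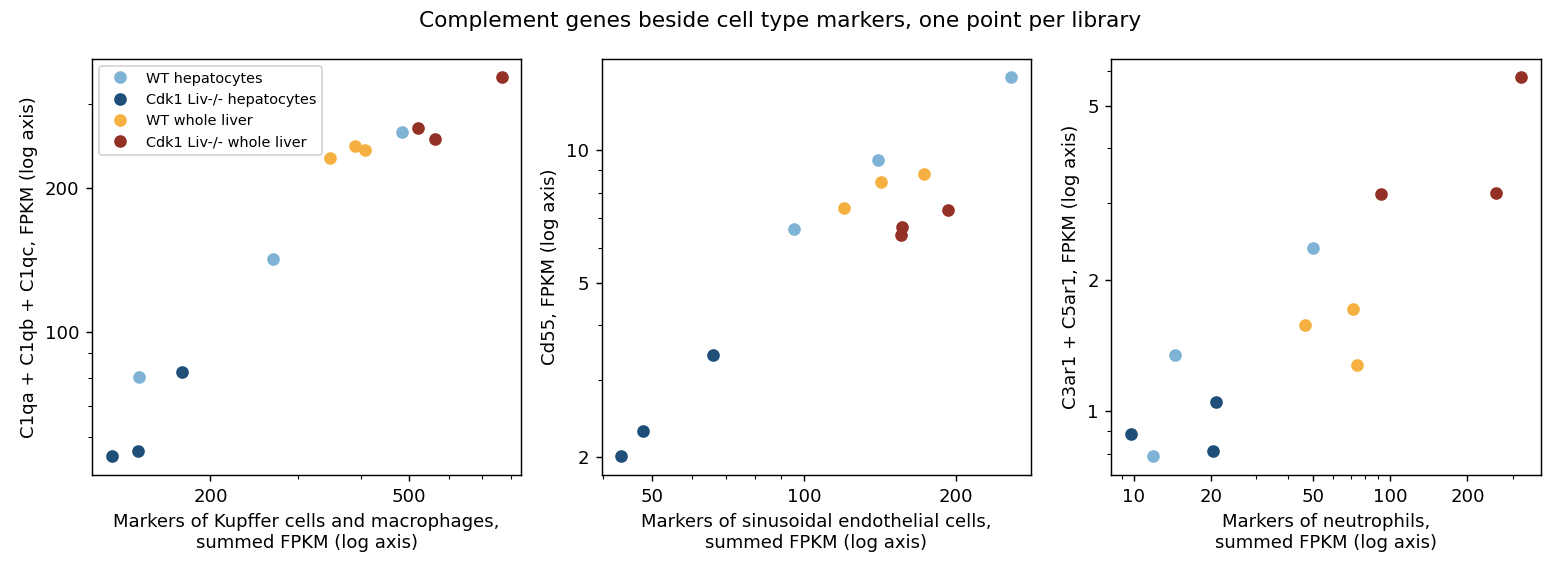
One point per library on log axes of FPKM: summed C1q against macrophage markers (left), Cd55 against sinusoidal endothelial markers (middle) and C3ar1 plus C5ar1 against neutrophil markers (right). The lowest points of the left and middle panels are Cdk1 Liv-/- hepatocytes, at 54.8 FPKM of C1q and 2.01 FPKM of Cd55.

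C1r and C1s are the serine proteases that C1q switches on, and the mouse has a pair of genes for each. C1s2 (ENSMUSG00000079343) was listed at 0.04, 0 and 0.02 FPKM in WT hepatocytes and 10.3, 10.9 and 21.4 FPKM in Cdk1 Liv-/- hepatocytes. The whole liver levels were 0, 0.05 and 0.03 FPKM in WT whole liver and 24.2, 22.8 and 21.2 FPKM in Cdk1 Liv-/- whole liver. The WT libraries were all at 0.05 FPKM or less and the Cdk1 Liv-/- libraries all at 10.3 FPKM or more. A single read on the 2662 bp transcript stands for 0.0078 to 0.011 FPKM, so the WT values rest on at most 5.4 reads a library and the Cdk1 Liv-/- values on 1080 to 2990 reads. C1rb (ENSMUSG00000098470) had the same pattern, at 0.07, 0.08 and 0.07 FPKM in WT hepatocytes and 4.34, 3.3 and 7.05 FPKM in Cdk1 Liv-/- hepatocytes. Its levels in whole liver were 0.03, 0.08 and 0.11 FPKM in WT whole liver and 9.82, 7.98 and 8.72 FPKM in Cdk1 Liv-/- whole liver. Between 2.94 and 11.2 reads stood behind the WT values of C1rb, and no WT library reached the lowest Cdk1 Liv-/- library.

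On the log2 scale, C1s2 rose by 4.75 ± 0.29 (adjusted p = 0.00114) in hepatocytes and by 5.46 ± 0.08 (adjusted p = 1.86e-05) in whole liver. C1rb rose by 3.17 ± 0.26 (adjusted p = 0.00219) in hepatocytes and by 4.02 ± 0.11 (adjusted p = 8.18e-05) in whole liver. These sizes depend on the 0.5 FPKM added before the logarithm, because the WT values are close to 0. Both genes passed the filter on low values through the Cdk1 Liv-/- groups alone. Both also passed without a filter, where every gene with a value above 0 is tested.

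The sister genes were abundant in both genotypes. C1s1 was listed at 225, 211 and 182 FPKM in WT hepatocytes and 228, 243 and 231 FPKM in Cdk1 Liv-/- hepatocytes. In whole liver its values were 223, 214 and 199 FPKM in WT whole liver and 269, 245 and 231 FPKM in Cdk1 Liv-/- whole liver. The groups of C1s1 did not overlap in either tissue. C1s1 did not pass in hepatocytes (0.19 ± 0.10 (adjusted p = 0.249)) and rose in whole liver (0.23 ± 0.08 (adjusted p = 0.0719)), where the call was lost without any library except Cdk1 Liv-/- replicate 3, without a filter and with median-ratio size factors. C1ra lay between 92.4 and 128 FPKM in all 12 libraries, with log2 fold changes of -0.05 ± 0.09 (adjusted p = 0.767) and -0.11 ± 0.12 (adjusted p = 0.503). C1s2 made up 4.33, 4.3 and 8.47% of the summed C1s FPKM in Cdk1 Liv-/- hepatocytes and 8.26, 8.5 and 8.43% in Cdk1 Liv-/- whole liver, against at most 0.0233% in WT. For C1rb the share of C1r was 3.92, 3.33 and 6.85% and 7.65, 7.35 and 7.93% in the same groups, against at most 0.112% in WT.

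Reads of 75 bp can be shared between such pairs. Of the 75-base words in C1s2 transcripts, 16.3% also occur in C1s1 transcripts, and of those in C1rb, 49.5% occur in C1ra. The WT libraries hold more than 182 FPKM of C1s1 and more than 92 FPKM of C1ra with almost none listed for C1s2 and C1rb. The assignment of reads between the sister genes was not tested.

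The 4 genes lie together on chromosome 6 (mm10), which was looked at after their values were seen. In chromosomal order the tested genes are Pex5, Clstn3, Gm44096, C1rl, C1ra, C1s1, Gm16567, C1rb, C1s2 and Lpcat3, with C1rb at chr6:124570294-124581171 on the plus strand and C1s2 at chr6:124624625-124636085 on the minus strand. Pex5 and Lpcat3, the outermost, did not pass in either tissue. Clstn3, which encodes a calsyntenin, was listed at 0.21, 0.11 and 0.29 FPKM in WT hepatocytes and 2.38, 2.95 and 2.64 FPKM in Cdk1 Liv-/- hepatocytes. In whole liver Clstn3 was at 0.42, 0.35 and 0.25 FPKM in WT whole liver and 2.13, 1.58 and 2.31 FPKM in Cdk1 Liv-/- whole liver. Its groups did not overlap, and it rose by 2.17 ± 0.16 (adjusted p = 0.00173) in hepatocytes and 1.57 ± 0.15 (adjusted p = 0.00194) in whole liver. Gm16567, an antisense transcript over C1s1, was at 0 FPKM in all 6 WT libraries. It was at 1.68, 0 and 0 FPKM in Cdk1 Liv-/- hepatocytes and at 5.13, 14.4 and 7.32 FPKM in Cdk1 Liv-/- whole liver. It passed the filter on low values through the Cdk1 Liv-/- libraries alone, so no test is given for it. Gm44096, another antisense transcript, fell in whole liver, by 0.54 on the log2 scale (adjusted p = 0.0051). C1rl, a C1r-like protease, is described with the other pathway genes. The strain of the mice is not given in the sources used here, so a strain difference between the genotypes around these genes was not checked.

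**Figure D5:**
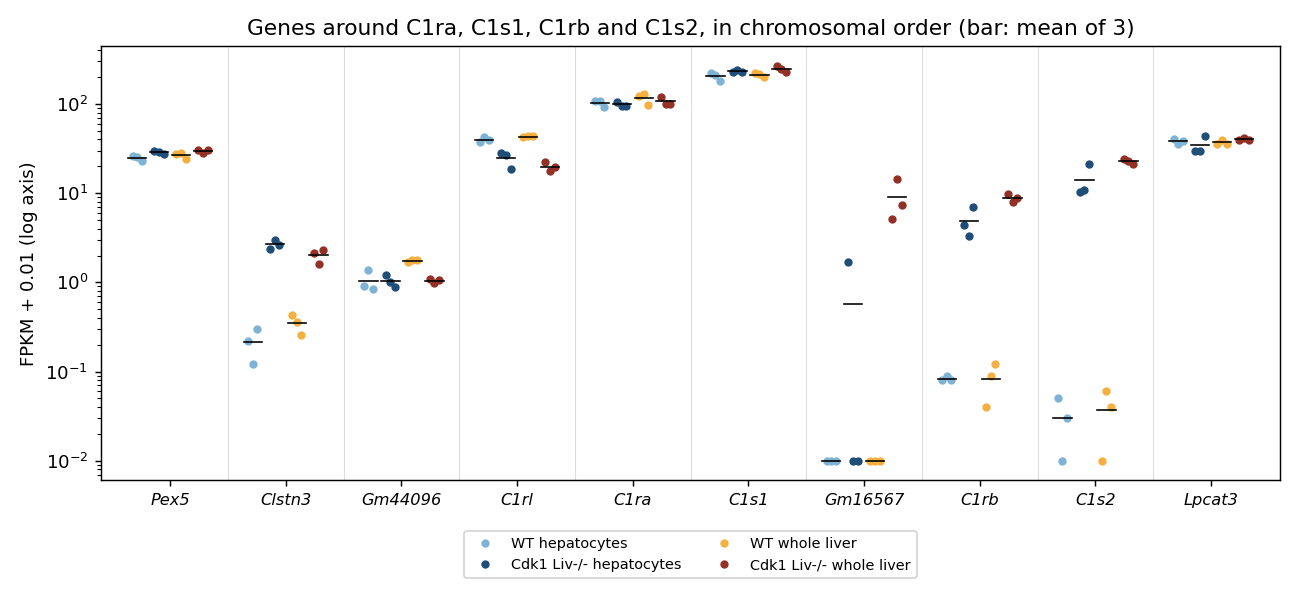
FPKM + 0.01 on a log axis for the 10 tested genes from Pex5 to Lpcat3 on chromosome 6, in chromosomal order, with 1 point per library and a bar at the mean of the 3 libraries of a group. Points at 0.01 are values of 0; Clstn3, C1rb and C1s2 have each Cdk1 Liv-/- point above each WT point, while C1ra and Lpcat3 overlap.

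Promoter sequences of the RefSeq table (build GRCm38.p6) were found for 23 members, with 25 starts. They are shown for C3, C9, C4bp, C1rb and C1s2, which rose in both tissues, and for C1s1, the sister gene of C1s2. For C4a, C4b, Cfi and Serping1, which also rose in both, no promoter was found and no motif was searched. Each line gives 150 bases that end 20 bases before a RefSeq start, 5′ to 3′ on the strand of the gene, with motif matches in capitals. The motifs searched on both strands of the 250 bases upstream were STAT (TTCNNNGAA), C/EBP (TTGCNNAA) and the NF-kappaB consensus. The positions are chr17:57228157-57228306 (minus strand) for C3, chr15:6445176-6445325 (plus) for C9, chr1:130661639-130661788 (minus) for C4bp, chr6:124570260-124570409 (plus) for C1rb, chr6:124636106-124636255 (minus) for C1s2 and chr6:124542380-124542529 (minus) for the second start of C1s1.
C3: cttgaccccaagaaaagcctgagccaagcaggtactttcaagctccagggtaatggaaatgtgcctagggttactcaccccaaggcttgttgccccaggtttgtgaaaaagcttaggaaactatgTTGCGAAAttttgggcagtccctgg
C9: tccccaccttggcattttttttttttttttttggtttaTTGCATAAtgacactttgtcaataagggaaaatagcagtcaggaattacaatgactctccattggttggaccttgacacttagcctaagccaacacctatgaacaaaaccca
C4bp: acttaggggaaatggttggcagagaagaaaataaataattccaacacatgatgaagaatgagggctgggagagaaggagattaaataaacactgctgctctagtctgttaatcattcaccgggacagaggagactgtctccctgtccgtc
C1rb: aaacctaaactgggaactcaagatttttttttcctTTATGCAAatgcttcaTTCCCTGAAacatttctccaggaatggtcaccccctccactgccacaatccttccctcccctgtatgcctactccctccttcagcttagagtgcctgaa
C1s2: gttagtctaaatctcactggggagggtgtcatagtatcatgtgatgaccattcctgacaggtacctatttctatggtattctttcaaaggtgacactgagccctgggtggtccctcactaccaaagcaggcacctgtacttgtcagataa
C1s1: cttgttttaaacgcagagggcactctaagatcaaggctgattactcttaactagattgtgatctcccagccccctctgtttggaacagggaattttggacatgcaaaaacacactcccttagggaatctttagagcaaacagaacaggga

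The capitals are C/EBP matches in C3, 45 bases before the start, and in C9, 132 bases before it. In C1rb they are a C/EBP match at 135 bases and a STAT match at 119 bases before the RefSeq start. By the GENCODE coordinates given above, C1rb starts farther upstream, and both matches lie inside the gene. No match of the 3 motifs was found upstream of C4bp or C1s2, and the second start of C1s1 had a C/EBP match 242 bases away, outside the stretch shown. Over all member promoters, 4 of 25 (16%) held a C/EBP match and 4 of 25 (16%) a STAT match, where 9.56% and 7.02% of the 32851 promoters of the table did. An NF-kappaB match was found in 1 of 25 (4%), that of C1qc, against 7.25% of the table; it too lies inside the gene by GENCODE. A match describes letters and is not a binding site. Aligned locally, the upstream stretches of C1s1 and C1s2 shared 35 bases at 77.1% identity. In the 250 bases of C1ra and C1rb, a stretch of 99 bases matched at 93.9% identity (93 bases), next to the RefSeq start of C1ra but farther upstream of that of C1rb.

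The lectin pathway begins with mannose-binding lectins, which bind microbial sugars, and the proteases MASP-1 and MASP-2, which cleave C4 and C2. Mbl2 was listed at 289, 288 and 288 FPKM in WT hepatocytes and 466, 507 and 402 FPKM in Cdk1 Liv-/- hepatocytes. Its levels in whole liver were 331, 329 and 316 FPKM in WT whole liver and 481, 267 and 455 FPKM in Cdk1 Liv-/- whole liver. The hepatocyte groups did not overlap, and those of whole liver did because of Cdk1 Liv-/- replicate 2. Mbl2 rose in hepatocytes (0.66 ± 0.10 (adjusted p = 0.0137)) and did not pass in whole liver (0.25 ± 0.23 (adjusted p = 0.421)) unless that replicate was left out. Mbl1 and Masp2 lay between 80.9 and 133 FPKM in all libraries. They fell in whole liver, Mbl1 by 0.27 (adjusted p = 0.0874) and Masp2 by 0.37 (adjusted p = 0.0206) on the log2 scale, and neither passed in hepatocytes, apart from Masp2 as lower by the two-sample test. The call of Mbl1 in whole liver was lost without any 1 of the 3 WT libraries, without a filter, with a replicate block (the replicate number as a term of the fit) and with libraries rescaled to 1 sum. Masp1, at 7.89 to 28.4 FPKM, passed in neither tissue, apart from whole liver as lower without Cdk1 Liv-/- replicate 1 or with median-ratio size factors.

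C4 and C2 form the convertase that cleaves C3, and C3 fragments coat the target and drive the rest of the cascade. C3 (ENSMUSG00000024164) was listed at 2826, 2813 and 2792 FPKM in WT hepatocytes and 3477, 5303 and 4849 FPKM in Cdk1 Liv-/- hepatocytes. Whole liver held it at 2706, 2484 and 2676 FPKM in WT whole liver and 4025, 4243 and 3998 FPKM in Cdk1 Liv-/- whole liver. No Cdk1 Liv-/- library was below any WT library in either tissue. C3 rose by 0.67 ± 0.19 (adjusted p = 0.0799) in hepatocytes and by 0.64 ± 0.09 (adjusted p = 0.00584) in whole liver. The whole liver call held under every setting other than the fold threshold. In hepatocytes it was lost without any library except Cdk1 Liv-/- replicate 1, whose 3477 FPKM is the lowest of its group, with log2 fold changes of 0.55 to 0.85 over the 6 cases. Without WT hepatocytes replicate 3 it was 0.67 (adjusted p = 0.17), close to the value with it. The hepatocyte call was also lost without a filter, with median-ratio size factors and with the replicate block.

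C4b encodes the main mouse C4 and C4a its close copy, the sex-limited protein. The gene annotation used here lists C4b as protein-coding and C4a as a processed transcript. C4b was listed at 276, 289.6 and 294 FPKM in WT hepatocytes and 612, 449 and 624 FPKM in Cdk1 Liv-/- hepatocytes. Its whole liver values were 289, 283 and 265 FPKM in WT whole liver and 428, 444 and 369 FPKM in Cdk1 Liv-/- whole liver. Without overlap in either tissue, C4b rose by 0.95 ± 0.14 (adjusted p = 0.0121) in hepatocytes and by 0.56 ± 0.09 (adjusted p = 0.00748) in whole liver. C4a was listed far lower, at 2.43, 4.35 and 2.73 FPKM in WT hepatocytes and 11.8, 7.48 and 7.72 FPKM in Cdk1 Liv-/- hepatocytes. In whole liver C4a was at 2.76, 2.29 and 3.99 FPKM in WT whole liver and 4.13, 7.05 and 5.96 FPKM in Cdk1 Liv-/- whole liver. The lowest Cdk1 Liv-/- library of C4a in whole liver, at 4.13 FPKM, was just above the highest WT library, at 3.99 FPKM. C4a rose by 1.38 ± 0.26 (adjusted p = 0.0253) in hepatocytes and 0.82 ± 0.25 (adjusted p = 0.0479) in whole liver. Its whole liver call was lost without WT replicate 1 or 2 or Cdk1 Liv-/- replicate 2 or 3, the log2 fold change lying within 0.67 to 1.02 over all 6 leave-outs. Without Cdk1 Liv-/- whole liver replicate 3, the library with Xist, it was 0.78 (adjusted p = 0.123). The call was also lost without a filter and with median-ratio size factors. Of the 75-base words in C4a transcripts, 19.7% also occur in C4b. C2 lay between 40.8 and 51.4 FPKM throughout, with log2 fold changes of 0.05 ± 0.09 (adjusted p = 0.749) and -0.05 ± 0.10 (adjusted p = 0.728).

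In the alternative pathway, factor B (Cfb) joins C3b into a convertase, factor D (Cfd) activates factor B, and properdin (Cfp) stabilizes the complex. Cfb, the second most abundant member, was listed at 966, 980.1 and 937 FPKM in WT hepatocytes and 1003, 1172 and 1156 FPKM in Cdk1 Liv-/- hepatocytes. Its levels in whole liver were 1002, 1047 and 951 FPKM in WT whole liver and 1253, 1249.7 and 1206 FPKM in Cdk1 Liv-/- whole liver. The groups did not overlap in either tissue. Cfb rose in whole liver (0.31 ± 0.07 (adjusted p = 0.0215)), a call lost with median-ratio size factors, and did not pass in hepatocytes (0.20 ± 0.10 (adjusted p = 0.244)). Cfp was listed at 23.1, 14.4 and 46.7 FPKM in WT hepatocytes and 12.2, 9.31 and 8.86 FPKM in Cdk1 Liv-/- hepatocytes. In whole liver the values of Cfp were 32.9, 35.1 and 36.2 FPKM in WT whole liver and 32.7, 46.9 and 42.6 FPKM in Cdk1 Liv-/- whole liver. The hepatocyte groups of Cfp did not overlap, with WT replicate 3 the highest, and those of whole liver did. Its log2 fold changes were -1.28 ± 0.41 (adjusted p = 0.101) in hepatocytes and 0.21 ± 0.14 (adjusted p = 0.269) in whole liver, neither of which passed, and the second turned to -0.007 with median-ratio size factors. Without WT hepatocytes replicate 2, Cfp passed in hepatocytes at -1.67, and without replicate 3 it was -0.83 and did not pass. It also passed in hepatocytes with a pseudocount of 0.1, a filter at 1 FPKM, libraries rescaled to 1 sum or median-ratio size factors. In whole liver it passed without Cdk1 Liv-/- replicate 1, at 0.36. Per macrophage marker FPKM, Cfp stood at 0.0864, 0.0997 and 0.0963 in WT hepatocytes and 0.0693, 0.065 and 0.0699 in Cdk1 Liv-/- hepatocytes. In whole liver that ratio was 0.0949, 0.0899 and 0.0887 in WT and 0.0629, 0.0612 and 0.0755 in Cdk1 Liv-/- libraries, and the part of these cells in the Cfp values was not tested. The adipose product Cfd was near 0 in all libraries, as given above.

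The terminal components C5 to C9 build the membrane pore, and the gene of mouse C5 is Hc. Hc was listed at 337, 430.4 and 384 FPKM in WT hepatocytes and 433, 328 and 393 FPKM in Cdk1 Liv-/- hepatocytes. Its whole liver values were 444, 427 and 393 FPKM in WT whole liver and 451, 397 and 440.0 FPKM in Cdk1 Liv-/- whole liver. The groups overlapped in both tissues, and the log2 fold changes, 0.00 ± 0.14 (adjusted p = 1) and 0.03 ± 0.08 (adjusted p = 0.814), turned to -0.08 and -0.19 under median-ratio size factors. The 95% confidence interval in hepatocytes reached from -0.34 to 0.34.

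C9, the protein that polymerizes into the pore, was listed at 58.2, 56.4 and 45.2 FPKM in WT hepatocytes and 192, 183 and 222 FPKM in Cdk1 Liv-/- hepatocytes. In whole liver C9 was listed at 56.8, 50.1 and 54.2 FPKM in WT whole liver and 124, 79.5 and 101 FPKM in Cdk1 Liv-/- whole liver. The lowest Cdk1 Liv-/- library stood above the highest WT library in both tissues, at 183 against 58.2 FPKM in hepatocytes and 79.5 against 56.8 FPKM in whole liver. C9 rose by 1.89 ± 0.13 (adjusted p = 0.00134) in hepatocytes, 3.71-fold, and by 0.89 ± 0.16 (adjusted p = 0.0118) in whole liver, 1.85-fold. C8g encodes the gamma chain of C8. It was listed at 208, 209 and 175 FPKM in WT hepatocytes and 178, 132 and 152 FPKM in Cdk1 Liv-/- hepatocytes. In whole liver C8g was at 206, 213 and 171 FPKM in WT whole liver and 131, 57.8 and 112 FPKM in Cdk1 Liv-/- whole liver, with Cdk1 Liv-/- replicate 2 far below the rest. The genotypes overlapped in hepatocytes and not in whole liver. C8g fell by 1.04 in whole liver (adjusted p = 0.0474) and had a log2 fold change of -0.36 ± 0.13 (adjusted p = 0.141) in hepatocytes, which did not pass. Without that replicate, the fall in whole liver was by 0.69 and kept its call, and without WT replicate 1 or 2 the call was lost at -1.01 and -0.98. It was also lost without a filter. In hepatocytes C8g passed without Cdk1 Liv-/- replicate 1, at -0.47.

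The other C8 chains and C6 passed in whole liver alone. C8a lay at 59.7 to 75.6 FPKM in WT whole liver and 101 to 107 FPKM in Cdk1 Liv-/- whole liver, and rose by 0.56 ± 0.10 (adjusted p = 0.0112). C8b, at 42.8 to 54.1 FPKM in WT and 37.3 to 40.7 FPKM in Cdk1 Liv-/- whole liver, fell by 0.29 (adjusted p = 0.0614). C6, at 5.65 to 7.25 and 7.78 to 13 FPKM, rose by 0.61 ± 0.20 (adjusted p = 0.0583). The calls of C6 and C8b were each lost without WT whole liver replicate 1 or 2 or Cdk1 Liv-/- replicate 3, and that of C8b also without Cdk1 Liv-/- replicate 2. When the library with Xist was left out, C6 was at 0.65 (adjusted p = 0.111) and C8b at -0.27 (adjusted p = 0.151). Both calls were lost without a filter, and that of C6 with median-ratio size factors. In hepatocytes C8a passed as well when Cdk1 Liv-/- replicate 1 was left out, and Cfi then did not, so that members higher numbered 10 as before.

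Regulators keep the cascade off host cells, and of the 4 regulators among the members, C4bp, Serping1 and Cfi were higher and Cd55 was lower in both tissues (9.27% and 2.51% of all tested genes). C4b-binding protein (C4bp, ENSMUSG00000026405), a plasma inhibitor of the C4b2a convertase, was listed at 187, 158 and 165 FPKM in WT hepatocytes and 344, 428 and 409 FPKM in Cdk1 Liv-/- hepatocytes. In whole liver its values were 194, 185 and 173 FPKM in WT whole liver and 324, 309 and 326 FPKM in Cdk1 Liv-/- whole liver. There was a wide gap between genotypes, and C4bp rose by 1.21 ± 0.11 (adjusted p = 0.00347) in hepatocytes and 0.80 ± 0.06 (adjusted p = 0.00111) in whole liver. Serping1, which encodes C1 inhibitor, was listed at 162, 165 and 169.9 FPKM in WT hepatocytes and 372, 259 and 398 FPKM in Cdk1 Liv-/- hepatocytes. Its whole liver values were 212, 223 and 189 FPKM in WT whole liver and 327, 381 and 269 FPKM in Cdk1 Liv-/- whole liver. Without overlap in either tissue, Serping1 rose by 1.02 ± 0.17 (adjusted p = 0.0162) in hepatocytes and 0.63 ± 0.14 (adjusted p = 0.0203) in whole liver. The calls of C4bp and Serping1 held with each library left out and under every setting other than the fold threshold, which both passed in hepatocytes and missed in whole liver.

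Factor I (Cfi), the protease that degrades C3b and C4b, was listed at 381, 417 and 386 FPKM in WT hepatocytes and 486, 483 and 501 FPKM in Cdk1 Liv-/- hepatocytes. In whole liver Cfi was at 406, 394 and 399 FPKM in WT whole liver and 473, 422 and 467 FPKM in Cdk1 Liv-/- whole liver. Its groups did not overlap. Cfi rose by 0.31 ± 0.08 (adjusted p = 0.0533) in hepatocytes and by 0.18 ± 0.06 (adjusted p = 0.0775) in whole liver, where the value equalled the median of all tested genes and turned to -0.04 with median-ratio size factors. The hepatocyte call was lost without WT replicate 1 or 3 or Cdk1 Liv-/- replicate 1 or 3, at 0.29 to 0.35 over the 6 cases and at 0.30 (adjusted p = 0.126) without WT replicate 3. The whole liver call was lost without any library except Cdk1 Liv-/- replicate 2, at 0.15 to 0.23 over the 6 cases and at 0.16 (adjusted p = 0.189) without Cdk1 Liv-/- replicate 3. Both calls were also lost with median-ratio size factors and with the replicate block.

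Cd55, decay-accelerating factor, is a membrane protein that dismantles the C3 convertases. It was listed at 9.52, 6.62 and 14.7 FPKM in WT hepatocytes and 3.42, 2.01 and 2.29 FPKM in Cdk1 Liv-/- hepatocytes. In whole liver Cd55 was listed at 7.38, 8.48 and 8.85 FPKM in WT whole liver and 6.42, 7.33 and 6.69 FPKM in Cdk1 Liv-/- whole liver. The genotypes did not overlap in either tissue, and WT hepatocytes replicate 3 was the highest library. Cd55 fell by 1.77 in hepatocytes (SE 0.31, adjusted p = 0.0207) and by 0.25 in whole liver (SE 0.09, adjusted p = 0.0752). Without WT hepatocytes replicate 3 the hepatocyte value was -1.49 (adjusted p = 0.0431). The whole liver call was lost without WT replicate 2 or 3 or Cdk1 Liv-/- replicate 1 or 3, at -0.33 to -0.20 over the 6 cases and -0.24 (adjusted p = 0.166) without Cdk1 Liv-/- replicate 3, and also without a filter and with libraries rescaled to 1 sum.

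Markers of sinusoidal endothelial cells were set beside Cd55. This list has 8 genes, Fcgr2b the most abundant with 22.4% of the sum, and none was at 0 everywhere. They summed to 140.1, 95.7 and 257 FPKM in WT hepatocytes and 65.9, 43.5 and 47.9 FPKM in Cdk1 Liv-/- hepatocytes. In whole liver the sums were 119.9, 142 and 173 FPKM in WT and 155, 192 and 156 FPKM in Cdk1 Liv-/- libraries. All 8 markers fell in Cdk1 Liv-/- hepatocytes (6.61% of all tested genes), and 2 of the 8 rose in Cdk1 Liv-/- whole liver (38%). Per FPKM of these markers, Cd55 stood at 0.068, 0.0692 and 0.057 in WT hepatocytes and 0.0519, 0.0462 and 0.0478 in Cdk1 Liv-/- hepatocytes. The ratio was 0.0615, 0.0596 and 0.0513 in WT whole liver and 0.0414, 0.0381 and 0.0428 in Cdk1 Liv-/- whole liver. In both tissues each Cdk1 Liv-/- ratio lay below each WT ratio, and the part of these cells in the Cd55 result was not tested.

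The anaphylatoxin receptors C3ar1 and C5ar1 bind the released fragments C3a and C5a, mostly on myeloid cells. C3ar1 was listed at 1.02, 0.55 and 1.6 FPKM in WT hepatocytes and 0.51, 0.54 and 0.54 FPKM in Cdk1 Liv-/- hepatocytes. In whole liver C3ar1 was at 0.73, 0.89 and 0.99 FPKM in WT whole liver and 1.62, 2.88 and 1.6 FPKM in Cdk1 Liv-/- whole liver. C5ar1 was listed at 0.33, 0.24 and 0.77 FPKM in WT hepatocytes and 0.54, 0.35 and 0.27 FPKM in Cdk1 Liv-/- hepatocytes. Its whole liver levels were 0.55, 0.69 and 0.73 FPKM in WT whole liver and 1.52, 2.93 and 1.56 FPKM in Cdk1 Liv-/- whole liver. Both were low everywhere, their genotypes did not overlap in whole liver, and in each Cdk1 Liv-/- replicate 2 was the highest. In whole liver C3ar1 rose by 0.85 ± 0.21 (adjusted p = 0.0274) and C5ar1 by 1.07 ± 0.22 (adjusted p = 0.0176). Neither passed in hepatocytes, at -0.54 ± 0.26 (adjusted p = 0.225) and -0.07 ± 0.23 (adjusted p = 0.882), and the C5ar1 value changed sign without WT hepatocytes replicate 3, to 0.17, and without Cdk1 Liv-/- hepatocytes replicate 3, to 0.03. Without WT hepatocytes replicate 2, C3ar1 passed there at -0.79, and without replicate 3 it was -0.29 and did not pass.

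For the receptors, markers of neutrophils and monocytes were summed. The 8 neutrophil markers, none at 0 everywhere and S100a9 the most abundant with 43.7%, summed to 74.4, 46.4 and 71.5 FPKM in WT whole liver and 91.8, 324 and 258 FPKM in Cdk1 Liv-/- whole liver. In hepatocytes the sums were 14.5, 11.9 and 49.8 FPKM in WT and 20.9, 9.74 and 20.4 FPKM in Cdk1 Liv-/- libraries. Of the 8, 7 rose in Cdk1 Liv-/- whole liver (38% of all tested genes). By limma 0 passed in hepatocytes, where 12.1% of all tested genes were higher and 6.61% lower. The 6 monocyte markers include F10, which hepatocytes also make and which gave 91% of their sum. The other 5, none at 0 everywhere and Plac8 the most abundant with 71.5%, summed to 29.9, 29.4 and 28.6 FPKM in WT whole liver and 67.9, 71 and 62.3 FPKM in Cdk1 Liv-/- whole liver. Their sums in hepatocytes were 13.4, 8.33 and 21.5 FPKM in WT and 13.2, 12.1 and 14.4 FPKM in Cdk1 Liv-/- libraries. Of the 6, 3 rose and 1 fell in whole liver (38% and 7.53% of all tested genes). In hepatocytes 1 rose and 1 fell (12.1% and 6.61%). The part of these cells in the receptor results was not tested.

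An interaction of genotype and tissue, fitted to all 12 libraries, asked whether a genotype difference was unlike in the isolated cells and the whole organ. For 1 of the 29 members (3.45%) the change in hepatocytes lay above that in whole liver, where 2.35% of all tested genes did so. For 5 members (17.2%) it lay below, where 7.49% of all tested genes did so. With a difference of 1 or more required as well, the counts were 1 (0.805% of all tested genes) and 5 (3.15%). The median difference was -0.03 over the members and -0.11 over all tested genes. C9 was the member above, with a difference of 1.00 ± 0.22 (adjusted p = 0.0483) on the log2 scale. Below were C1qc at -1.51 ± 0.47 (adjusted p = 0.0951), Cd55 at -1.51 ± 0.34 (adjusted p = 0.0529), Cfp at -1.49 ± 0.46 (adjusted p = 0.0948), C3ar1 at -1.39 ± 0.35 (adjusted p = 0.0622) and C5ar1 at -1.14 ± 0.34 (adjusted p = 0.0905). Of the 76 tested marker genes, 23 (30.3%) lay below and 2 (2.63%), both of hepatocytes, above. Those below included 7 of 8 sinusoidal endothelial markers, 5 of 9 of stellate cells and fibroblasts and 3 of 10 of macrophages. They also included 3 of 6 monocyte and 4 of 5 mesothelial markers, while 0 of 8 neutrophil markers passed. The part of these cells in the interaction was not tested. C1rb (-0.85 ± 0.29 (adjusted p = 0.117)) and C1s2 (-0.72 ± 0.31 (adjusted p = 0.192)) did not pass, except without Cdk1 Liv-/- hepatocytes replicate 3, the highest of its group for both, at -1.12 and -1.04.

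The interaction calls depended on which libraries were kept. Without a filter and with the replicate block, C1qc, C3ar1, C5ar1 and Cfp lost theirs. With median-ratio size factors C1qc, C5ar1 and Cfp lost theirs, and with a pseudocount of 0.1 C1qc and C5ar1 did. C5ar1 was not tested with a filter at 1 FPKM. Leaving out WT hepatocytes replicate 2 gave 7 members below. Leaving out Cdk1 Liv-/- hepatocytes replicate 3 gave 4, of which Cd55 and C3ar1 were kept and C1rb and C1s2 were new. Leaving out any other library brought the 5 down to between 0 and 3: to 0 without WT whole liver replicate 1 or 2 or Cdk1 Liv-/- whole liver replicate 2, to 1 without WT hepatocytes replicate 1 or WT whole liver replicate 3, to 2 without Cdk1 Liv-/- hepatocytes replicate 1 or 2 or Cdk1 Liv-/- whole liver replicate 3, and to 3 without WT hepatocytes replicate 3 or Cdk1 Liv-/- whole liver replicate 1. C9 lost its call without WT whole liver replicate 1 and kept it without any other single library, with differences of 0.84 to 1.16 over the 12 cases. Over all tested genes, the share below went from 0.247% (without WT whole liver replicate 1) to 12.8% (without WT hepatocytes replicate 2). When WT hepatocytes replicate 3 was left out, C1qc was at -1.09 (adjusted p = 0.116) and C5ar1 at -0.91 (adjusted p = 0.151). When Cdk1 Liv-/- whole liver replicate 3 was, C1qc was at -1.61 (adjusted p = 0.127), Cfp at -1.45 (adjusted p = 0.151) and C5ar1 at -1.25 (adjusted p = 0.114). Members above numbered 2 without WT hepatocytes replicate 1 (1.66% of all tested genes) or Cdk1 Liv-/- hepatocytes replicate 1 (1.83%). They numbered 3 without Cdk1 Liv-/- hepatocytes replicate 2 (2.8%). Without both libraries that stood apart, chosen after the data were seen, 0 members were above (C9 at 0.90, adjusted p = 0.117) and 1, Cd55, was below, where 0.673% and 1.93% of all tested genes were.

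WT hepatocytes were also compared with WT whole liver, to see which members the isolated cells carry. By limma 0 of the 29 members were higher in hepatocytes and 0 lower, where 0.104% of all tested genes were higher and 1.42% lower (0.0403% and 0.426% with a change of 1 or more). At an unadjusted p under 0.05 there was 1 member higher (Masp1) and 3 lower (C2, Mbl2 and Serping1), where 2.77% of all tested genes were higher and 16.1% lower. The two-sample test named in the methods, with q-values, gave 1 lower, Mbl2, where 2% of all tested genes were. Without WT hepatocytes replicate 3, 8 members were lower in WT hepatocytes: C1qa, C1qb, C1qc, C2, C5ar1, Cfp, Mbl2 and Serping1. In that fit 15.3% of all tested genes were lower, so the rise in calls was not confined to the members.

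Beyond the members, 33 further complement genes were listed, on 34 genes of the table, of which 31 were tested. In hepatocytes 4 of the 31 (12.9%) were higher and 6 (19.4%) lower, where 12.1% and 6.61% of all tested genes were, and their median was -0.17 on the log2 scale (0.05 over all tested genes). In whole liver 9 (29%) were higher and 4 (12.9%) lower, where 38% and 7.53% of all tested genes were, with a median of 0.06 (0.18 over all tested genes). Clu, which encodes clusterin, an inhibitor of the membrane pore, was listed at 354, 390.4 and 414 FPKM in WT hepatocytes and 1612, 2108 and 2066 FPKM in Cdk1 Liv-/- hepatocytes. Its whole liver levels were 444, 466 and 414 FPKM in WT whole liver and 2092, 2340.2 and 2361 FPKM in Cdk1 Liv-/- whole liver. Each Cdk1 Liv-/- library was far above each WT library, and Clu rose by 2.31 ± 0.14 (adjusted p = 0.0011) and 2.36 ± 0.08 (adjusted p = 0.000143).

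Susd4, which encodes a membrane regulator, was listed at 0.59, 0.32 and 0.92 FPKM in WT hepatocytes and 3.05, 3.2 and 1.91 FPKM in Cdk1 Liv-/- hepatocytes. In whole liver Susd4 was at 0.81, 0.87 and 0.85 FPKM in WT whole liver and 2.66, 2.45 and 3.6 FPKM in Cdk1 Liv-/- whole liver. The groups did not overlap, and it rose by 1.55 ± 0.27 (adjusted p = 0.0202) and 1.33 ± 0.14 (adjusted p = 0.00268). Cr2, the complement receptor of B cells and follicular dendritic cells, was listed at 0.21, 0.29 and 0.18 FPKM in WT hepatocytes and 1.2, 1.04 and 1.31 FPKM in Cdk1 Liv-/- hepatocytes. In whole liver Cr2 was at 0.09, 0.26 and 0.14 FPKM in WT whole liver and 0.7, 0.42 and 1.29 FPKM in Cdk1 Liv-/- whole liver. It rose without overlap, by 1.21 ± 0.13 (adjusted p = 0.00465) and 0.93 ± 0.25 (adjusted p = 0.0375), and lost its whole liver call without WT replicate 1 or 3. Markers of B cells were summed as well. The 4 markers, Cd79b the most abundant with 39.3% and none at 0 everywhere, summed to 2.76, 1.49 and 6.08 FPKM in WT hepatocytes and 0.73, 0.59 and 0.4 FPKM in Cdk1 Liv-/- hepatocytes. In whole liver they summed to 12.2, 10.9 and 13.3 FPKM in WT and 4.93, 11.7 and 8.22 FPKM in Cdk1 Liv-/- libraries. Of the 4, 2 fell in each tissue (6.61% of all tested genes in hepatocytes and 7.53% in whole liver). The part of B cells in the Cr2 result was not tested.

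C1rl, the neighbor of C1ra, was listed at 37.8, 42.7 and 39.3 FPKM in WT hepatocytes and 28.2, 26.6 and 18.9 FPKM in Cdk1 Liv-/- hepatocytes. Its whole liver values were 42.4, 43.4 and 43.3 FPKM in WT whole liver and 22.2, 17.7 and 19.5 FPKM in Cdk1 Liv-/- whole liver. It fell without overlap in both tissues, by 0.71 in hepatocytes (SE 0.16, adjusted p = 0.0429) and by 1.11 in whole liver (SE 0.09, adjusted p = 0.00115). The hepatocyte call was lost without a filter or without any 1 of the 3 WT libraries, at -0.82 to -0.53 over the 6 cases and -0.72 (adjusted p = 0.103) without WT replicate 3. The collectins Colec11 and Colec10 are soluble pattern-recognition lectins. Colec11 was listed at 20.9, 10.2 and 54.1 FPKM in WT hepatocytes and 8.63, 4.67 and 4.23 FPKM in Cdk1 Liv-/- hepatocytes. In whole liver Colec11 was at 41.6, 39.4 and 45.1 FPKM in WT whole liver and 40.8, 47 and 43.3 FPKM in Cdk1 Liv-/- whole liver. Colec10 was listed at 11.5, 4.59 and 15.4 FPKM in WT hepatocytes and 3.11, 3.38 and 2.78 FPKM in Cdk1 Liv-/- hepatocytes. Its whole liver levels were 14.1, 13 and 12.7 FPKM in WT whole liver and 11, 5.37 and 11.8 FPKM in Cdk1 Liv-/- whole liver. In hepatocytes the genotypes did not overlap for either gene, WT replicate 3 was the highest, and Colec11 fell by 1.93 (adjusted p = 0.0956) and Colec10 by 1.47 (adjusted p = 0.0744). Both calls were lost without any library except WT replicate 2, Colec11 standing at -1.32 and Colec10 at -1.12 without WT replicate 3. Without a filter and with the replicate block, both calls were lost too, and that of Colec11 also with a pseudocount of 1 and with the two-sample test. In whole liver neither passed, apart from Colec10 without Cdk1 Liv-/- replicate 2, at -0.21, and Colec11 (0.06) turned to -0.16 with median-ratio size factors.

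Markers of stellate cells and fibroblasts, cells known to express collectins, were summed as well. The 9 markers, Col3a1 the most abundant with 38.5% and none at 0 everywhere, summed to 198, 118 and 403 FPKM in WT hepatocytes and 118, 119 and 102 FPKM in Cdk1 Liv-/- hepatocytes. In whole liver the sums were 455, 449 and 509.8 FPKM in WT and 920.5, 1162 and 868 FPKM in Cdk1 Liv-/- libraries. Of the 9, 1 fell in hepatocytes and 7 rose in whole liver (6.61% and 38% of all tested genes). The part of these cells in the collectin results was not tested.

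The values are RNA levels, and no complement protein or activity was measured. With 3 libraries a group, a difference that missed the threshold is not shown to be absent. The FPKM of all genes in a library share 1 total, so levels are relative within it.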

How the data were processed

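Polyadenylated RNA of 12 samples was sequenced. The authors aligned reads with STAR (no version given), quantified genes with RSEM 1.2.31 on mm10 and deposited FPKM without normalization between libraries. Here log2(FPKM + 0.5) was tested with limma 3.58.1 (R 4.3.3; eBayes with trend, two-sided), with Benjamini-Hochberg adjustment over genes with a mean of at least 0.1 FPKM and a threshold of 0.1, within each tissue, for the interaction and between the WT groups. The script of these fits was tested on simulated data. Alternatives were pseudocounts of 0.1 and 1, no filter, a filter at 1 FPKM, rescaling to 1 sum, median-ratio size factors, a replicate block, two-sample tests with q-values as in the study's methods, a fold threshold, and leaving out each library. Replicate numbers were not taken as pairs. Genes selected by rule are members that passed with a change of 1 or more on the log2 scale, the 3 most abundant in WT hepatocytes, those past the interaction, the central components C1q, C3, C4 and C5, and at most 6 pathway genes by the same threshold. The other tested members, the neighbors of C1rb and C1s2 and the flagged pathway genes are given as well. The result for 1 further pathway gene past the interaction is not reported here. The members and lists (roles, pathway genes, markers of 12 cell types) were chosen with earlier results of these data known. Transcripts came from GENCODE M21, promoters from RefSeq, alignments from Biopython 1.88 in Python 3.11.15, and figures from matplotlib 3.10.9.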

Additional observations from a re-analysis of the deposited data

Results flagged for a closer look

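A test of the difference itself, the interaction of genotype and tissue, picked out complement genes whose change in hepatocytes differed from that in whole liver at an adjusted p of at most 0.1. Each value is the log2 fold change in hepatocytes minus that in whole liver. Among the members it was -1.51 for C1qc, -1.51 for Cd55, -1.49 for Cfp, -1.39 for C3ar1, -1.14 for C5ar1 and 1.00 for C9. Markers of other cell types lay below too, 7 of 8 of sinusoidal endothelial cells (median -1.73) among them. So did 5 of 9 of stellate cells and fibroblasts (median -1.67) and 3 of 10 of macrophages (median -1.39). Of the 8 neutrophil markers 0 passed (median -1.775), and the part of these cells was not tested. Among the other pathway genes, Vsig4, a complement receptor of macrophages, had -1.45 (adjusted p = 0.0966), and Itgam, a chain of complement receptor 3, had -1.18 (adjusted p = 0.0981). Cfhr2, whose protein is related to factor H, had 0.55 (adjusted p = 0.0548); it fell in whole liver and did not pass in hepatocytes. The chains of carboxypeptidase N, which inactivates anaphylatoxins, split: Cpn2 had 0.51 (adjusted p = 0.0699) and Cpn1 had -0.30 (adjusted p = 0.0741). No outlier rule was run, because the one used for flagging does not cover groups of 3 libraries.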

How the results depend on the processing

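Of 855 values of 58 gene results under other settings, 701 kept their direction and side of the threshold, 121 lost their call, 19 gained one and 14 changed sign. Shares of all tested genes in the same fit stand in brackets. Members lower in Cdk1 Liv-/- hepatocytes, 1 (6.61%), became 2 (7.03%) with a pseudocount of 0.1, 4 (7.95%) with a filter at 1 FPKM, 3 (6.11%) rescaled to 1 sum, 4 (8.13%) with median-ratio size factors and 2 (8.12%) with the two-sample test. Members higher there, 10 (12.1%), were 6 (4.2%) with the fold threshold. In whole liver, those higher, 16 (38%), were 10 (17.9%) with size factors and 3 (4.59%) with the fold threshold, and those lower, 5 (7.53%), were 1 (4.1%) without a filter, 3 (6.78%) rescaled, 8 (16.4%) with size factors and 1 (1%) with the fold threshold. For the interaction, those above, 1 (2.35%), were 2 (2.98%) with the filter at 1 FPKM, 2 (3.15%) with size factors and 0 (0.673%) without both libraries that stood apart. Those below, 5 (7.49%), were 3 (6%) with a pseudocount of 0.1, 1 (2.42%) without a filter, 2 (2.83%) with size factors, 1 (2.62%) with the replicate block and 1 (1.93%) without both libraries. Members lower in WT hepatocytes than WT whole liver, 0 (1.42%), were 1 (2%) with the two-sample test.

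Leaving out 1 library each gave 8 to 10 members higher (6.65% to 9.33%) and 1 to 6 lower (2.31% to 7.04%) in hepatocytes. In whole liver 11 to 15 were higher (25.9% to 35.6%) and 1 to 5 lower (4.94% to 7.45%). For the interaction 0 to 3 were above (0.201% to 2.8%) and 0 to 7 below (0.247% to 12.8%). Between the WT groups 0 were higher (0.00575% to 2.38%) and 0 to 8 lower (0% to 15.3%). A lone pair in a group is assumed to vary like the others.

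With size factors, Hc turned to -0.0761 in hepatocytes, and in whole liver Hc to -0.195, Colec11 to -0.164, C1qa to -0.0355, C1qc to -0.0125, Cfi to -0.0399 and Cfp to -0.00702. In hepatocytes Hc was -0.0891 without WT replicate 1, -0.0905 and -0.0199 when Cdk1 Liv-/- replicate 1 or 3 was left out, and at most 0.111 (without Cdk1 Liv-/- replicate 2). C5ar1 was 0.167 without WT replicate 3, 0.0305 without Cdk1 Liv-/- replicate 3 and at least -0.223 otherwise. In whole liver Hc was -0.0229 without WT replicate 3 and -0.0098 without Cdk1 Liv-/- replicate 1, and at most 0.0827. The causes of these changes were not tested. Same-numbered libraries of different groups correlated at -0.317 to 0.239 across genes, above 0.1 in 2 of 18 pairs, so numbers were not read as pairs. Depth limits genes near 0.1 FPKM, which rest on few reads.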

Other observations

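For the counts below, 12.1% of all tested genes were higher and 6.61% lower in hepatocytes, and 38% and 7.53% in whole liver. Of the marker lists not yet given, cholangiocyte markers were higher in 4 of 5 genes in each tissue. Spp1 gave 94.1% of their sum, which was 19.6, 14.6 and 30.1 FPKM in WT hepatocytes and 66.8, 124 and 100.1 FPKM in Cdk1 Liv-/- hepatocytes. In whole liver it was 59.4, 62.2 and 45.8 FPKM in WT and 270.2, 139 and 259 FPKM in Cdk1 Liv-/- libraries. Mesothelial markers, Msln the most abundant, were higher in 5 of 5 genes in whole liver and passed by limma in 0 of 5 in hepatocytes, with sums of at most 7.42 FPKM. Of 5 erythroid markers, Hba-a1 the most abundant, 1 fell in hepatocytes and 2 in whole liver. Their sum was 44.8, 40.3 and 176 FPKM in WT hepatocytes and 21, 31.9 and 9.88 FPKM in Cdk1 Liv-/- hepatocytes. In whole liver the sums overlapped, at 313, 338 and 610.0 FPKM in WT and 300.4, 434 and 367 FPKM in Cdk1 Liv-/- libraries. Of 5 markers of T and NK cells, 2 fell in hepatocytes and 0 passed by limma in whole liver, with sums of at most 7.94 FPKM. Of 5 adipocyte markers only Car3, which hepatocytes also make, was tested and did not pass. Lep was at 0 in all libraries, and the other 3 were at or below 0.1 FPKM.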
